A study of Mus musculus with 15 samples.

Results

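Pomc, Cartpt, Agrp, Npy, Ghrh, Tac2 and Gal, 7 neuropeptide genes of the arcuate nucleus, were followed through 15 RNA-Seq libraries of mice. They were taken by gene name, and 8 of the 23589 loci with a gene name carried one of the 7 names, because Agrp had a locus on each strand. The libraries came from the hypothalamus, hippocampus, liver, epididymal fat and colon of male C57BL/6 mice on 3 diets. AL mice were fed ad libitum and were 5 months of age. DR mice were restricted by 40% from 4 months of age for 1 month and were also 5 months of age. DR-AL mice went through the same restriction, then ate ad libitum for 2 months and were 7 months of age, so diet and age cannot be told apart in that group. Every library was made from pooled RNA of 5 mice, with 1 library per tissue and diet. The 3 hypothalamus libraries held between 29673910 and 32745522 counts on named loci, against 21767088 to 40500130 over all libraries.

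The arcuate nucleus lies at the base of the hypothalamus, where its neurons sense leptin, insulin, ghrelin and nutrients from the blood. Neurons that make Pomc and Cartpt restrain feeding, whereas neurons that make Agrp and Npy drive it and are known to be activated by food deprivation. Other arcuate neurons make Ghrh, which controls growth hormone release, or Tac2, which takes part in the control of reproduction, and Gal is made by neurons in several hypothalamic nuclei.

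The tissue labels were compared with marker genes. The hypothalamic transcription factor gene Otp had 2006, 1841 and 1313 counts in the AL, DR and DR-AL hypothalamus libraries, and Six6 had 609, 555 and 240. In the other tissues the highest counts were 9 for Otp and 1 for Six6. Neurod6, a gene of hippocampal excitatory neurons, had 10564, 7941 and 4686 counts in the hippocampus and at most 58 elsewhere. These markers were thus high in their own region, with Six6 and Otp lowest in the DR-AL hypothalamus. Other markers did not separate the tissues as well, since Prox1 had at least 104.0 CPM in the hippocampus but up to 103.7 elsewhere, Nr5a1 at least 11.8 in the hypothalamus but up to 11.1 elsewhere, and Spink8 at least 12.6 in the hippocampus but up to 1079 elsewhere. CPM is the count scaled to a common library total. The colon markers Car1, Lypd8, Muc2 and Cdh17 and the fat markers Adipoq, Lep, Plin1 and Cidec were higher in each library of their own tissue than in any other tissue. Apoa1, Ttr and Serpina1c were highest in the liver, while Alb was listed at 0 in all 15 libraries, the liver included.

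Levels of different genes were compared with the deposited FPKM values, which are scaled by length. In the AL hypothalamus Npy was highest at 93.1 FPKM, followed by Cartpt at 70.4, Pomc at 52.7, Gal at 27.9, Tac2 at 20.9, Agrp at 14.6 and Ghrh at 12.6. In the DR hypothalamus Npy (82.6 FPKM) and Cartpt (43.5) were still highest, but Pomc at 17.2 stood below Gal at 24.0 and Tac2 at 20.1. In the DR-AL hypothalamus Cartpt led at 48.3 FPKM, and Npy at 29.0, Gal at 28.3 and Tac2 at 24.8 lay close together above Pomc at 12.5. Agrp at 5.23 and Ghrh at 4.83 were lowest there. With 1 library for each diet, the spread between mice was not measured and neighbours in this order cannot be separated.

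The hypothalamus libraries were compared by the Z test of the study's methods, which divides counts by the library total and takes counting as the only error. A call needed a p under 0.05 after Benjamini-Hochberg adjustment over all loci, and a larger scaled count at least 25% above the smaller. The test compares 2 libraries and not the diets, the counts hold no replicate library for a diet, and all intervals cover counting error only. Measurements in individual mice were not used here. In bulk tissue, fewer cells of a type and less RNA per cell cannot be told apart. The AL library serves in 2 of the comparisons and each other library in 2, so the comparisons are not independent.

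Between DR and AL, 3 of the 7 genes were called lower, Pomc, Cartpt and Ghrh, and 0 were called higher. Of the 19320 loci tested, 2.73% were called lower and 4.33% higher, and of the 12869 loci with a mean of at least 100 counts, 2.22% were lower and 4.51% higher. Between DR-AL and AL, 5 of the 7 were called lower, the same 3 genes with Agrp and Npy, and 0 higher, against 9.03% lower and 6.06% higher of all loci and 9.11% and 6.77% of those with at least 100 counts. Between DR-AL and DR, 4 of the 7 were called lower, Pomc, Agrp, Npy and Ghrh, against 6.8% of all loci and 6.89% of those with at least 100 counts, while 2.82% and 2.72% were higher. The median log2 fold change of the 7 genes was -0.24, -1.48 and -0.38 in these comparisons, beside 0.01, -0.03 and -0.03 over all loci tested. These medians depended on the scaling described further on, being 0.42, 0.085 and 0.53 when counts were scaled to Bsx and Tbx3, and 0.15, -0.62 and 0.083 with hypothalamus identity genes without Peg3. The calls depended on the error allowed between libraries, each of which was a pool of 5 mice. With a coefficient of variation of 0.2 in an exact test of edgeR, 0 of the 7 were called between DR and AL, where 0.114% of all loci were called lower. That test called 2 lower, Pomc and Npy, between DR-AL and AL, against 0.487% of all loci, and 2 lower, Agrp and Npy, between DR-AL and DR, against 0.492%.

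Pomc encodes the precursor of alpha-melanocyte-stimulating hormone, which lowers food intake through melanocortin receptors. In the AL hypothalamus it had 2980 counts (100.4 CPM), against 1052 (32.1 CPM) under DR and 708 (22.7 CPM) under DR-AL. Pomc was thus high in AL and low in both other libraries. Against AL the log2 fold change of DR was -1.64 (95% interval -1.75 to -1.54), and that of DR-AL was -2.15 (-2.27 to -2.03). With the scaling to Bsx and Tbx3 these were -0.98 and -0.57, and with hypothalamus identity genes without Peg3 -1.24 and -1.28. With library totals, only 2 of the 12869 loci with at least 100 counts had a lower value in DR against AL, and 14 in DR-AL against AL. From DR to DR-AL the value was -0.50, a direction that turned to 0.41 when counts were scaled to Bsx and Tbx3 as described further on, and that was -0.037 with identity genes without Peg3.

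Cartpt encodes the precursor of the CART peptides, which also restrain feeding. The AL library held 2658 Cartpt counts (89.6 CPM), DR held 1797 (54.9 CPM) and DR-AL held 1815 (58.2 CPM). The DR and DR-AL libraries lay close together below AL. For Cartpt the log2 fold change against AL was -0.71 (-0.79 to -0.62) under DR. That value was -0.04 with the scaling to Bsx and Tbx3 and -0.31 with hypothalamus identity genes without Peg3, both under the fold needed for a call. Under DR-AL it was -0.62 (-0.71 to -0.54), which the scaling to Bsx and Tbx3 turned to 0.95 and identity genes without Peg3 to 0.24. Cartpt did not pass the test between DR-AL and DR, with a value of 0.08 (-0.01 to 0.18), but that value was 0.99 with the scaling to Bsx and Tbx3 and 0.55 with identity genes without Peg3.

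Agrp encodes the antagonist of the melanocortin receptors that, within the brain, is made mainly by arcuate neurons. Its locus on the annotated strand held 440 counts in AL (14.8 CPM), 525 under DR (16.0 CPM) and 165 under DR-AL (5.29 CPM). With library totals AL and DR could not be told apart at this depth, and DR-AL was low. In DR against AL the log2 fold change was 0.11 with an interval from -0.07 to 0.30 that includes 0, but it was 0.78 with the scaling to Bsx and Tbx3 and 0.51 with identity genes without Peg3, both above that interval. It was -1.60 in DR-AL against DR (-1.86 to -1.35) and -1.48 in DR-AL against AL (-1.75 to -1.23), and scaled to Bsx and Tbx3 these were -0.69 and 0.09, and with identity genes without Peg3 -1.13 and -0.62. The locus on the opposite strand had 72, 85 and 66 counts in the 3 hypothalamus libraries and 33, 25 and 23 in the hippocampus. It was not called in any of the 3 hypothalamus comparisons, and it was kept apart from Agrp.

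Npy encodes neuropeptide Y, which stimulates feeding and is made by the Agrp neurons and by many other neurons of the forebrain. Npy counts were 2527 in AL (85.2 CPM), 2458 under DR (75.1 CPM) and 790 under DR-AL (25.3 CPM). As for Agrp, the low library was DR-AL. Npy in DR-AL had a log2 fold change of -1.75 against AL (-1.87 to -1.63) and -1.57 against DR (-1.69 to -1.45), and these were -0.18 and -0.66 with the scaling to Bsx and Tbx3 and -0.89 and -1.10 with identity genes without Peg3. In DR against AL it was -0.18 (-0.26 to -0.10), a difference under the fold needed for a call. That value was 0.48 with the scaling to Bsx and Tbx3 and 0.22 with identity genes without Peg3.

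Ghrh encodes the hypothalamic hormone that releases growth hormone from the pituitary. Its counts were 511 in AL (17.2 CPM), 257 under DR (7.85 CPM) and 188 under DR-AL (6.02 CPM). Ghrh was high in AL and low in DR and DR-AL, as Pomc was. Ghrh in DR had a log2 fold change of -1.13 against AL (-1.36 to -0.91), and 3 of the 12869 loci with at least 100 counts had a lower value. In DR-AL it was -1.51 against AL (-1.76 to -1.27) and -0.38 against DR (-0.66 to -0.10), and these turned to 0.06 and 0.53 with the scaling to Bsx and Tbx3, while the latter turned to 0.083 with identity genes without Peg3. The call of Ghrh between DR-AL and DR was lost when libraries were scaled by DESeq size factors or TMM totals, although the log2 fold change was then -0.34 with either, since the adjusted p of the Z test moved from 0.0263 to 0.0522 and 0.0530. With all hypothalamus identity genes that log2 fold change was -0.25, and from FPKM it was -0.27, both under the fold needed for a call.

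Tac2, the gene of neurokinin B, had 846, 894 and 1003 counts in AL, DR and DR-AL, or 28.5, 27.3 and 32.1 CPM. Gal, the gene of galanin, had 949, 884 and 963 counts, or 32.0, 27.0 and 30.9 CPM. Neither gene was called in any of the 3 comparisons. The log2 fold changes of Tac2 against AL were -0.06 in DR (-0.20 to 0.07) and 0.17 in DR-AL (0.04 to 0.31). Those of Gal were -0.24 in DR (-0.38 to -0.11) and -0.05 in DR-AL (-0.18 to 0.08). With the scaling to Bsx and Tbx3 all 4 values were positive, at 0.60 and 1.74 for Tac2 and 0.42 and 1.52 for Gal. They were also positive with identity genes without Peg3, and with all identity genes Tac2 in DR was 0.099 and Gal in DR-AL was 0.24. From FPKM Gal in DR-AL was 0.025.

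**Figure D1:**
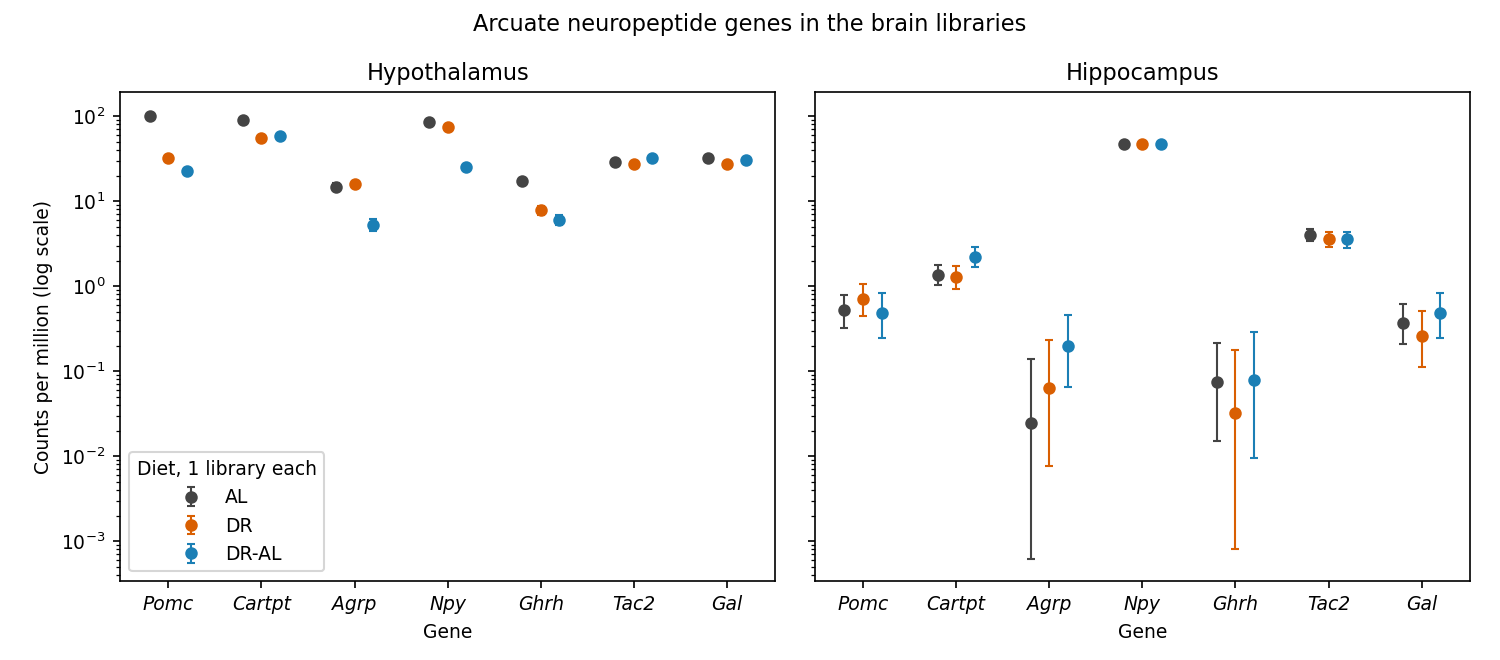
Scaled counts (CPM, vertical axis, log scale) of the 7 neuropeptide genes in the hypothalamus (left) and hippocampus (right), 1 point per library, with exact 95% Poisson intervals for counting error. Among the hypothalamus libraries Pomc and Ghrh are highest in AL and Agrp and Npy lowest in DR-AL, and Npy lies near 47.0 CPM in each hippocampus library.

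**Figure D2:**
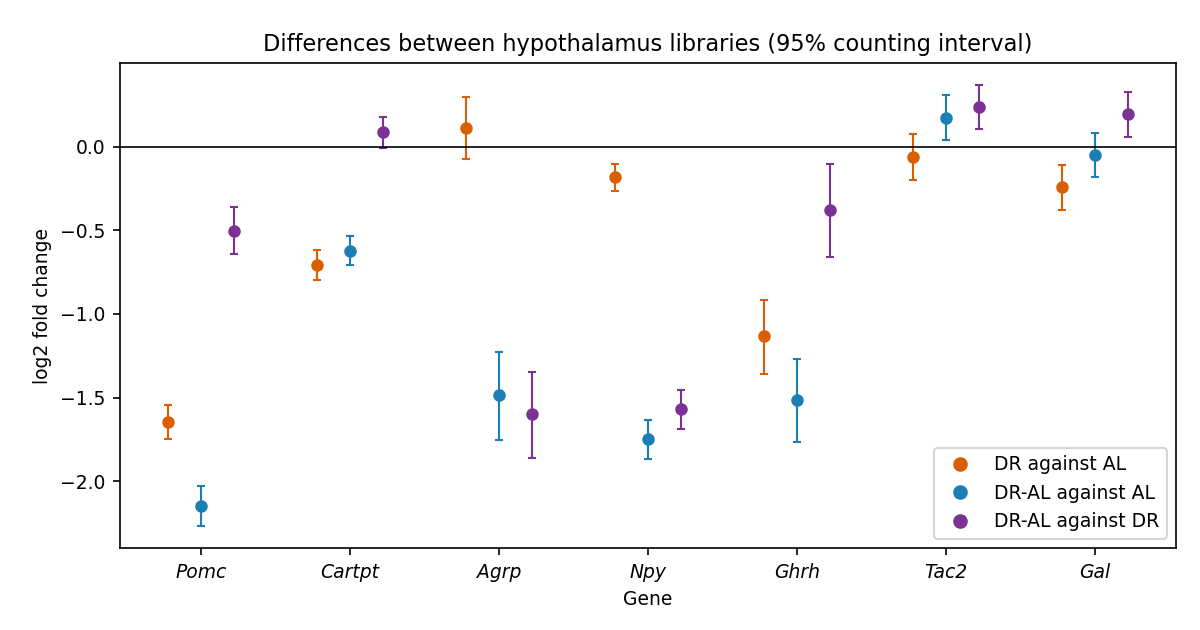
Log2 fold change (vertical axis) of each gene between hypothalamus libraries scaled by their totals, with exact 95% intervals for counting error. In DR against AL Pomc, Ghrh and Cartpt lie lowest and Agrp alone lies above 0, though scaling to Bsx and Tbx3 or to identity genes without Peg3 would also place Npy, Tac2 and Gal above 0. In DR-AL against AL Pomc, Npy, Ghrh and Agrp lie lowest, where scaling to Bsx and Tbx3 would place Cartpt, Agrp and Ghrh at 0.95, 0.09 and 0.06, and in DR-AL against DR Pomc and Ghrh at 0.41 and 0.53, and identity genes without Peg3 would place Cartpt at 0.24 and Ghrh at 0.083 in these comparisons.

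Ratios of counts within a library do not depend on how libraries are scaled. Agrp counts per Pomc count were 0.148 in AL (0.133 to 0.163), 0.499 under DR (0.449 to 0.555) and 0.233 under DR-AL (0.196 to 0.276). The ratio of Agrp to Pomc was therefore highest in DR and intermediate in DR-AL, with intervals that do not overlap. Npy to Pomc followed the same order, with 0.848 for AL, 2.34 for DR and 1.12 for DR-AL. Agrp to Npy varied less, with 0.174 for AL, 0.214 for DR and 0.209 for DR-AL. Cartpt to Pomc had another order, with 0.892 for AL, 1.71 for DR and 2.56 for DR-AL. From FPKM, which is scaled by length, Agrp to Pomc was 0.276, 0.923 and 0.419 in the same libraries.

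Transcription factor genes of the arcuate and ventral hypothalamus were examined beside these genes. Of 13 such genes, 6 were called lower and 0 higher under DR, and 10 lower and 0 higher under DR-AL against AL. Their median log2 fold change was -0.31 and -0.85 with library totals, but 0.35 and 0.73 with the scaling to Bsx and Tbx3, which are 2 of the 13, and 0.088 and 0.018 with identity genes without Peg3, of which 6 are among the 13, so neither scale is independent of this list. Their summed level was 385, 286 and 189 CPM in AL, DR and DR-AL, with Otp the most abundant. Tbx3, a factor of developing and adult arcuate neurons, had 1343, 919 and 442 counts. Bsx, a factor needed for normal Agrp and Npy expression, had 971, 692 and 376. Both were called lower under either diet, and DR-AL against AL gave log2 fold changes of -1.67 for Tbx3 and -1.44 for Bsx. Nhlh2 with 494, 509 and 508 counts and Prdm12 with 122, 130 and 121 were not called. The part of these cells in the values of the neuropeptide genes was not tested.

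Counts were also scaled to the sum of Bsx and Tbx3 in place of library totals, an alternative chosen after seeing the data. Over loci with a mean of at least 100 counts, the median shift was 0.66 in DR and 1.57 in DR-AL against AL. The median shift was 0.91 in DR-AL against DR, and genes with few counts can shift by other amounts. Bsx and Tbx3 both mark arcuate neurons, and both were themselves called lower. On that scale DR against AL gave log2 fold changes of -0.98 for Pomc, -0.47 for Ghrh, -0.04 for Cartpt, 0.48 for Npy and 0.78 for Agrp. DR-AL against AL gave -0.57 for Pomc, -0.18 for Npy, 0.06 for Ghrh, 0.09 for Agrp and 0.95 for Cartpt. Pomc was below AL on this scale in both libraries, whereas Agrp and Ghrh in DR-AL lay near the change of the 2 factors. Per Tbx3 count, Pomc counts were 2.22, 1.14 and 1.60 in AL, DR and DR-AL, and Agrp counts were 0.328 (0.294 to 0.365), 0.571 (0.512 to 0.637) and 0.373 (0.310 to 0.447). All calls of gene lists given here used library totals. Scaling to Bsx and Tbx3 turns a gene without few counts positive where its log2 fold change against AL lay between about -0.66 and 0 in DR. For DR-AL the range is about -1.57 to 0. The summed counts of 14 hypothalamus identity genes were also used as the scale. Over loci with a mean of at least 100 counts, this gave a median shift of 0.16 in DR and 0.29 in DR-AL against AL. The median shift was 0.13 in DR-AL against DR. These shifts are smaller than the fold needed for a call, and no called value of the 7 genes was reversed. Ghrh in DR-AL against DR was -0.25 on this scale, under that fold. The sum of the 14 genes was mostly Peg3, which made up 62.3%, 68.1% and 74.7% of it in AL, DR and DR-AL with 30020, 32325 and 30872 counts. Among the other 13 genes Irs4 had the most counts, with 7823, 6130 and 4608, and Otp came next with 2006, 1841 and 1313. Irs4 thus weighs most in the sum of the 13. With library totals it was itself called lower against AL, at -0.49 in DR and -0.84 in DR-AL. Scaling to these 13 genes was an alternative also chosen after seeing the data. Its median shift over the same loci was 0.40 in DR and 0.86 in DR-AL against AL, and 0.46 in DR-AL against DR. In DR against AL this scaling gave -1.24 for Pomc, -0.73 for Ghrh and -0.31 for Cartpt. It gave 0.24 for Cartpt in DR-AL against AL and 0.083 for Ghrh in DR-AL against DR, and in DR-AL against AL -1.28 for Pomc, -0.89 for Npy, -0.65 for Ghrh and -0.62 for Agrp. Of those 14 genes, 5 were called lower and 1 higher in DR and 10 lower and 1 higher in DR-AL against AL.

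Genes of neighbouring cells and regions differed between the libraries as well. Of 8 genes of tanycytes, the cells that line the floor of the third ventricle, 4 were called lower and 1 higher under DR, and 6 lower and 0 higher under DR-AL against AL. Their median in DR-AL was -1.44, -0.57 with identity genes without Peg3, and 0.13 with the scaling to Bsx and Tbx3, and 1 of the 8, Rax, is itself an identity gene. The tanycyte genes summed to 359, 294 and 214 CPM in AL, DR and DR-AL, with Col25a1 the most abundant and Rax at 295, 234 and 65 counts. Of 8 thalamus genes, 0 were called higher and 1 lower under DR, and 6 higher and 0 lower under DR-AL, with a sum of 419, 407 and 536 CPM led by Slc17a6. Of 10 genes of telencephalic excitatory neurons, led by Camk2a with a sum of 896, 946 and 730 CPM, 7 were called higher and 1 lower under DR, and 6 higher and 2 lower under DR-AL. The part of these cells and regions in the values of the neuropeptide genes was not tested.

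Pomc is also a gene of the pituitary, which adjoins this part of the hypothalamus. Of 11 pituitary genes, 5 were called higher and 1 lower under DR, and 0 higher and 8 lower under DR-AL against AL. The pituitary genes summed to 25.2, 32.9 and 5.58 CPM in AL, DR and DR-AL. Cga had 253, 361 and 27 counts and was the most abundant in AL and DR, whereas Lhb led in DR-AL with 41. Tbx19, a factor of the pituitary cells that make Pomc, had 122, 71 and 23 counts, and Pou1f1, a defining factor of other pituitary cells, had 0, 2 and 0. The pituitary sum was thus lowest in DR-AL and highest in DR, while Tbx19 was highest in AL, and the part of pituitary tissue in the Pomc values was not tested. Of 10 colon epithelium genes, 9 were called lower in DR and 8 in DR-AL against AL. They summed to 28.7, 4.03 and 4.07 CPM in AL, DR and DR-AL, with Lypd8 the most abundant in AL and Muc2 in DR and DR-AL. Their part was not tested either, and Pomc had at most 4 counts in the colon libraries.

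Genes of other hypothalamic regions were counted as well. Of 12 genes of the lateral, paraventricular and suprachiasmatic regions, peptide genes apart from the receptor gene Gpr101, 5 were called higher and 1 lower under DR, and 4 higher and 2 lower under DR-AL against AL. Pmch, a feeding peptide of the lateral hypothalamus, had 4179, 6062 and 6661 counts in AL, DR and DR-AL. Avp had 13982, 8745 and 4920 counts, whereas Oxt had 4960, 5230 and 4994 and was not called. Of 9 other arcuate neuron genes measured at a locus of their own, 6 were called lower and 0 higher under DR, and 6 lower and 1 higher under DR-AL. Their median log2 fold change was -0.43 in DR and -0.76 in DR-AL with library totals, 0.23 and 0.82 with the scaling to Bsx and Tbx3, and -0.03 and 0.11 with identity genes without Peg3. Pdyn had 4026, 2560 and 1865 counts, and Slc6a3, the dopamine transporter gene, had 313, 281 and 756. Kiss1, Galp and Serpina3n shared a locus with another gene and were not counted.

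**Figure D3:**
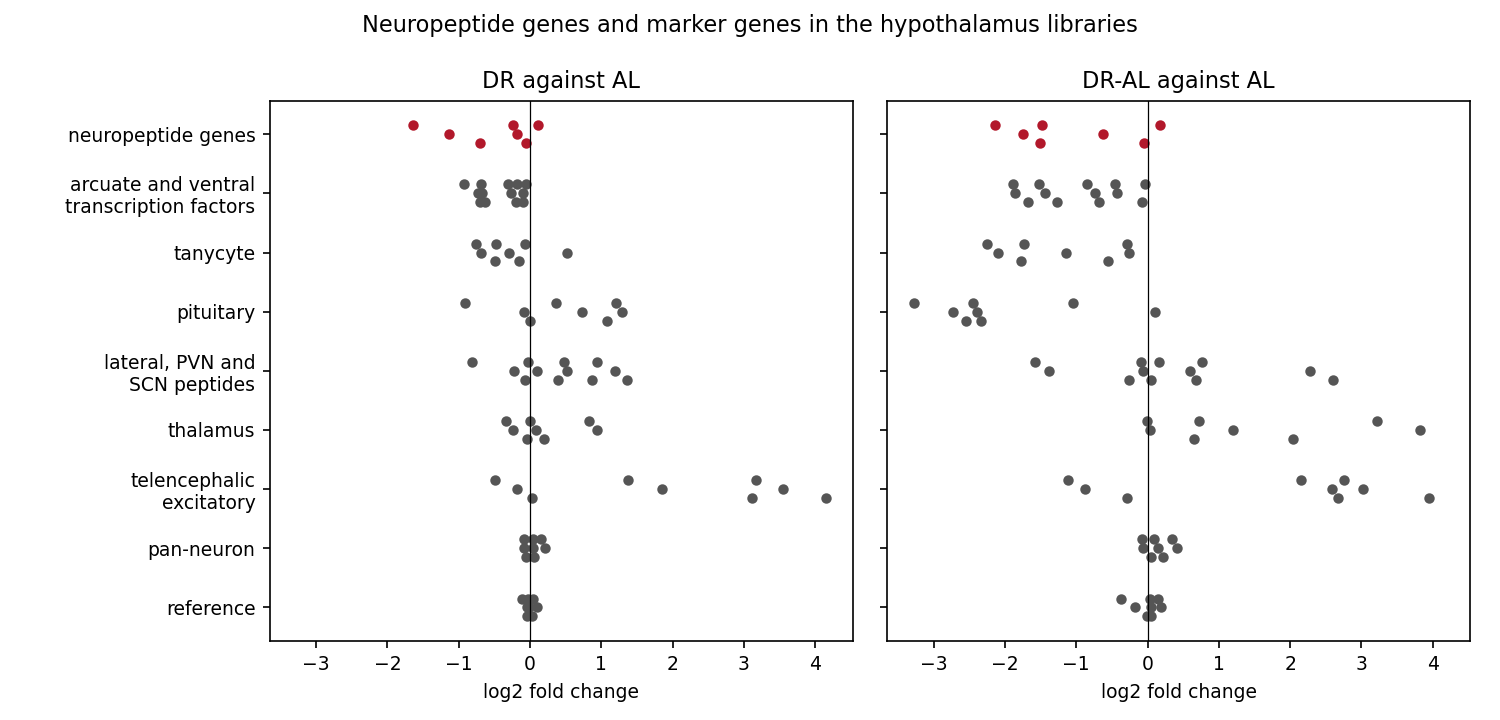
Log2 fold change of the 7 neuropeptide genes (top) and of genes averaging 10 or more counts in 8 marker lists (PVN, paraventricular, and SCN, suprachiasmatic nucleus), in DR (left) and DR-AL (right) against AL on the horizontal axis, scaled by library totals, with 1 point per gene and no error bars. Transcription factor and tanycyte genes lie mostly below 0 in DR-AL, although scaling to Bsx and Tbx3 would move their medians to 0.73 and 0.13 and identity genes without Peg3 the former to 0.018, while pituitary genes lie mostly below 0 and thalamus genes mostly above 0, with medians of the same sign on either scale.

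Receptors of the neuropeptides were examined next. Of 13 receptor genes measured at their own locus, 1 was called higher and 2 lower under DR, and 2 higher and 4 lower under DR-AL against AL. Their median in DR-AL was -0.35 with library totals, 1.01 with the scaling to Bsx and Tbx3 and 0.30 with identity genes without Peg3. Mc3r, a melanocortin receptor of arcuate neurons, had 559, 410 and 245 counts and was called lower in both comparisons, whereas Mc4r, the receptor on target neurons, had 158, 194 and 171 and was not called. Npy1r and Npy2r had 925, 951 and 660 and 1306, 1159 and 879 counts and were called lower in DR-AL and not in DR. Galr1 had 350, 544 and 569 counts and was called higher in both, and Tacr3, the receptor of neurokinin B, had 396, 448 and 661 and was called higher in DR-AL. Ghrhr, the receptor of the Ghrh peptide, had 0, 3 and 0 counts, and Galr3 shared a locus with another gene.

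Among 12 receptor genes of hormones and transmitters that act on arcuate neurons, 1 was called higher and 2 lower under DR, and 1 higher and 6 lower under DR-AL against AL. The leptin receptor gene Lepr had 533, 512 and 277 counts and the ghrelin receptor gene Ghsr had 626, 585 and 377. With library totals both were called lower in DR-AL, at log2 fold changes of -1.02 and -0.80, and not in DR, while the scaling to Bsx and Tbx3 turns both positive. The median of the 12 genes in DR-AL was -0.38 with totals, 1.19 with that scaling and 0.48 with identity genes without Peg3. The serotonin receptor gene Htr2c had 2001, 3109 and 3891 counts and was called higher in both. Of 12 energy sensing genes, 1 was called higher and 1 lower under DR, and 0 higher and 5 lower under DR-AL, among them Socs3, an inhibitor of leptin signalling, with 98, 123 and 69 counts. Their median in DR-AL was -0.15 with totals, 1.42 scaled to Bsx and Tbx3, 0.14 with all identity genes and 0.71 without Peg3.

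Genes that process neuropeptides were counted in the same way. Of 10 processing and secretory granule genes measured at their own locus, 0 were called in DR or in DR-AL against AL, and their median log2 fold change was 0.03 and -0.0031. Pcsk1, the convertase that starts the cleavage of the Pomc precursor, had 3125, 3076 and 2741 counts, and Cpe, the most abundant, had 56018, 63462 and 66378. Of 8 pan-neuron genes 0 were called in DR and 2 higher in DR-AL, and of 8 reference genes 0 were called in DR and 1 lower in DR-AL. In the remaining lists, genes called lower and higher in DR-AL against AL were 1 and 4 of 8 posterior hypothalamus genes, 2 and 2 of 8 striatal, 3 and 2 of 7 hippocampus, 3 and 2 of 8 choroid plexus, 0 and 4 of 8 inhibitory neuron and 2 and 2 of 8 glia genes. In DR against AL those numbers were 1 and 3, 0 and 1, 2 and 1, 2 and 1, 0 and 1, and 1 and 0.

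In the hippocampus, Npy had 1880, 1462 and 1183 counts in AL, DR and DR-AL, or 46.4, 46.8 and 47.0 CPM. Tac2 had 163, 111 and 89 counts, Cartpt 55, 40 and 56, Pomc 21, 22 and 12, and Gal 15, 8 and 12. Agrp had 1, 2 and 5 counts and Ghrh 3, 1 and 2. Npy was thus level across the hippocampus libraries, and Npy and Tac2 had the highest counts of the 7 genes there. Hippocampal Npy had a log2 fold change against AL of 0.01 (-0.09 to 0.11) under DR and 0.02 (-0.09 to 0.12) under DR-AL. Whether this differs from the hypothalamus beyond the spread between mice was not tested.

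Taking the 3 diets as pairs of brain libraries, 6 of the 7 genes were called higher in the hypothalamus than in the hippocampus by the quasi-likelihood test of edgeR at a Benjamini-Hochberg adjusted p under 0.05. Of 16043 loci tested, 34.2% were called higher and 33.4% lower. Each of the 6 was higher in 3 of 3 pairs. With 1 pool of mice per pair, the 3 diets stand in for replicates. The log2 fold change was 6.28 ± 0.34 (SE) for Pomc, with an adjusted p of 2.16e-05 from edgeR, and 2.73 ± 0.10 for Tac2, with an adjusted p of 7.42e-06. Pomc was 5.29 without the AL pair, 6.76 without the DR pair and 6.55 without the DR-AL pair, and was called each time. Npy was the exception at 0.02 ± 0.32 and an adjusted p of 0.95 in edgeR, higher in 2 of 3 pairs. Without the DR-AL pair Npy was called higher in the hypothalamus, with a log2 fold change of 0.52 and an adjusted p of 0.000574 from edgeR. Over all alternatives its adjusted p from edgeR or DESeq2 ran from 0.000574 to 0.988, and its log2 fold change was -0.30 without the AL pair and -0.20 without the DR pair.

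Outside the brain most of the genes were near the limit of counting. Agrp, Npy and Ghrh had 0 counts in all 3 liver libraries. In the AL liver a count of 0 allows up to 0.121 CPM when taken as up to 3 counts, and 0.149 CPM by the exact 95% Poisson interval. Npy in epididymal fat was different, with 545 counts (20.8 CPM) in AL, 1446 (63.3 CPM) in DR and 6515 (238 CPM) in DR-AL. Npy in fat was thus lowest in AL and highest in DR-AL, where it was lowest in the hypothalamus. The deposited FPKM values had the same order with smaller differences, at 31.1, 55.0 and 115.2. In fat the 2 scales differed over all genes, since the log2 fold change from FPKM minus that from CPM was -0.73 at the median for DR against AL and -1.62 for DR-AL against AL, over 13250 loci with a mean of at least 100 counts. Genes of testis and epididymis were then looked up in the same fat libraries, and were chosen after their values were seen. Prm1 and Tnp1, of sperm nuclei, had 2, 1437 and 10028 and 4, 1103 and 7495 counts in AL, DR and DR-AL, and the epididymis gene Adam7 had 1612, 6574 and 13169. The epididymis gene Lcn5 had another order, with 8, 660 and 455 counts. Adipoq and Plin1, made by adipocytes, had 114888, 71234 and 62999 and 48038, 44583 and 26349 counts, and the part of these tissues in the Npy counts was not tested.

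The loci with the most similar pattern over the 15 libraries were sought by the Pearson correlation of log2(CPM + 1), among 12869 loci with at least 100 counts in the hypothalamus. The libraries share tissue and pool, and the correlation covers differences between tissues as well as between diets. Closest to Pomc were Gpr50 (r = 0.995), Nkx2-4 (0.990) and Cngb1 (0.988). Closest to Agrp were Six6 (0.997), Foxb2 (0.995) and Prdm13 (0.994), and closest to Ghrh were Prdm13 (0.997), Bsx (0.997) and Fezf1 (0.996). Closest to Cartpt were Gm14164 (0.998), Rtl1 (0.997) and Magel2 (0.996). Tac2 was closest to Nhlh2 (0.998) and Gal to a locus shared by 6430411K18Rik and Mir127 (0.999), while the highest value for Npy was 0.986, with Cetn4. The 3 loci closest to Pomc also had their highest count in AL and their lowest in DR-AL, as for Gpr50 with 1844, 1260 and 583. These libraries were part of the correlation that chose the loci, so the shared order follows partly from the choice.

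The genes lie on 7 chromosomes of the GRCm38 assembly in GENCODE M21, Pomc at chr12:3954951-3960642, Cartpt at chr13:99898489-99901091, Agrp at chr8:105566698-105637393, Npy at chr6:49822710-49829507, Ghrh at chr2:157329497-157347506, Tac2 at chr10:127724478-127731768 and Gal at chr19:3409915-3414544. RefSeq promoters on GRCm38.p6 were matched for 6 of the 7 genes and not for Agrp, and Ghrh has 2 starts. Within the 250 bases before the start, on either strand, the TATA box letters TATAAA are held by Pomc and by 1 start of Ghrh, and by 12.4% of 32851 promoters. The letters TGACG of the cyclic AMP response element are held by Cartpt and both starts of Ghrh, and by 17.8% of all, and its full form TGACGTCA, which includes TGACG, is held by Cartpt and by 1.55% of all. The E-box letters CACGTG, the forkhead letters GTAAACA and the STAT letters TTCNNNGAA were found in 0 of the 7 promoters of these genes, against 6.02%, 3.17% and 7.02% of all. GGTCA, a nuclear receptor core, is held by 5 of the 7, those of Ghrh, Pomc, Cartpt and Gal, and by 35.2% of all. A match is a description of letters and not of a site in use. The 120 bases before the start are given for the 3 genes called lower in DR, with both starts of Ghrh, and for Npy, which was not called, with TATAAA and TGACG matches on either strand in capitals.
Pomc, plus strand, chr12:3954825-3954944: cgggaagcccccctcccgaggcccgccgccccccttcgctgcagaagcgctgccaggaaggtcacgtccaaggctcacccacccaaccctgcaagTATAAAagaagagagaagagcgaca
Cartpt, minus strand, chr13:99900684-99900803: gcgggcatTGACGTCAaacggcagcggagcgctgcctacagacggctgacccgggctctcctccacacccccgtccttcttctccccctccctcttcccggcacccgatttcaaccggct
Ghrh, minus strand, chr2:157337427-157337546: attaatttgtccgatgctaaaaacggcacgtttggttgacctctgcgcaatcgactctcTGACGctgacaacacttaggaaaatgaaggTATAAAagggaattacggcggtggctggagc
Ghrh, other start, minus strand, chr2:157346656-157346775: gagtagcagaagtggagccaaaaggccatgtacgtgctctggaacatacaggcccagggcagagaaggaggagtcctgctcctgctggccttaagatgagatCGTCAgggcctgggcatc
Npy, plus strand, chr6:49822590-49822709: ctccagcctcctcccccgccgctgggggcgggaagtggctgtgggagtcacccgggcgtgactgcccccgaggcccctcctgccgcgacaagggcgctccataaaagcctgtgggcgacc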

How the data were processed

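The authors deposited, for each of 33603 loci in 15 libraries, a count of reads without normalization and an FPKM value, 30 columns in all, which were all used. Per the methods, reads were stranded and ribosomal RNA-depleted, were trimmed, aligned and cleared of duplicates by the authors, and the methods name mm10 while the submitters' processing notes name mm9 and DESeq2. Of 7 member loci, 2 overlap their GRCm38 position. Of 21384 loci with a single name, 21262 lie on the same chromosome as in GRCm38, but only 13.6% overlap their position there. The deposited positions are thus mostly not those of GRCm38, which is mm10, and they were not compared with mm9. Positions printed are those of GENCODE M21 or RefSeq, never of the table. Loci without a gene name, 0.258% to 1.39% of counts, were left out of totals and tests. Genes of the lists were read from a locus with no other gene name, on the annotated strand.

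The Z test used square roots of count over total with Poisson variance, on loci with at least 1 count. The fold change in a call was the plain ratio of scaled counts. It was first computed with a pseudocount, which gave 1362 and 2914 calls for DR and DR-AL against AL in place of 1364 and 2916. The plain ratio was taken after seeing the data, to match earlier results of these data, and the called members were the same. Printed log2 fold changes used counts scaled to the mean total plus a pseudocount of 0.5, and their intervals were exact (Clopper-Pearson). Regions were compared with edgeR 4.0.16 in R 4.3.3 (TMM, filterByExpr, diet as a term), with DESeq2 1.42.0 as an alternative. The SE printed beside an edgeR value was derived from its test, as the absolute log2 fold change divided by the square root of the F statistic. Scripts were tested on simulated data. Members and lists were chosen with earlier results of these data known. Genes named are the members, the lists and the 3 loci most like each member, and others are said to be chosen after seeing the data. Examples from the lists were picked with their values in view.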

Additional observations from a re-analysis of the deposited data

Results flagged for a closer look

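In 4 cases a gene called lower in the DR-AL hypothalamus was higher than AL in another tissue, with counting intervals away from 0 on both sides. Npy had a log2 fold change of 3.52 in epididymal fat (3.39 to 3.65), from 545 counts in AL and 6515 in DR-AL, against -1.75 in the hypothalamus. From the deposited FPKM that value in fat was 1.89. Pomc had 1.995 in epididymal fat (1.20 to 2.95), from 15 and 64 counts, but 0.37 from FPKM. In fat the log2 fold change from FPKM minus that from CPM had a median of -1.62 over all 13250 loci compared, and the cause was not tested. In the liver Pomc had 2.50 (0.12 to 8.49), from 1 and 8 counts. Cartpt had 0.71 in the hippocampus (0.15 to 1.28), from 55 and 56 counts in libraries of unequal depth. This case depended on library totals. The hypothalamus value of Cartpt was -0.62 with totals, 0.95 scaled to Bsx and Tbx3 and 0.24 with identity genes without Peg3. With 1 library per tissue and diet the difference between tissues was not tested.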

How the results depend on the processing

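The number of genes called was 3 between DR and AL and 5 between DR-AL and AL with DESeq size factors, TMM totals, totals without the 10 most abundant loci or a mean of at least 10 counts, and between DR-AL and DR it was 4, or 3 with size factors or TMM. A pseudocount in the fold change of the call, an alternative added after seeing the data, gave 3, 5 and 4. With a coefficient of variation of 0.2 in the exact test of edgeR, 0 genes were called between DR and AL, 2 between DR-AL and AL and 2 between DR-AL and DR. A coefficient of variation of 0.1 and a fold change of at least 2 each gave 2 (Pomc and Ghrh), 4 (all 5 but Cartpt) and 2 (Agrp and Npy) in these comparisons. Over all loci, calls in either direction numbered 233, 667 and 366 with the former and 467, 890 and 596 with the latter. Of 189 log2 fold changes recomputed, 130 stayed within their counting interval, 52 moved beyond it without reversing a called value and 7 reversed one. The sign changed in 19, of which 12 were values not called, of Npy, Tac2 and Gal, 9 of the 19 with Bsx and Tbx3, 6 with identity genes without Peg3, 2 with all identity genes and 1 with each FPKM pseudocount. Of called values, 5 reversed with Bsx and Tbx3, an alternative chosen after seeing the data: in DR-AL against AL 0.95 for Cartpt, 0.085 for Agrp and 0.058 for Ghrh, and in DR-AL against DR 0.41 for Pomc and 0.53 for Ghrh. With identity genes without Peg3, also chosen after seeing the data, 2 did, Cartpt in DR-AL against AL at 0.24 and Ghrh in DR-AL against DR at 0.083. From FPKM the Agrp to Pomc ratio was 0.276, 0.923 and 0.419 in AL, DR and DR-AL, since the genes differ in length. Between regions, 6 genes were called in each alternative except without the DR-AL pair, which gave 7. Npy in the hypothalamus against the hippocampus was -0.011 with DESeq2 and between -0.30 and 0.52 when each diet was left out. Apart from the length scaling, the cause of these changes was not tested. Counts of a few reads, as for Agrp and Ghrh in the hippocampus, limit what depth can show.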
